A study of Mus musculus with 4 samples.

Results

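The immediate early transcription factors described here are 10 genes, taken by symbol from the 32285 genes counted in each of 4 single-cell RNA libraries of mouse lung, and each symbol had 1 row. They are Fos, Fosb, Fosl1 and Fosl2 of the Fos family, Jun and Junb of the Jun family, the zinc finger factors Egr1 and Egr2, the nuclear regulator Ier2, and Myc. The study asked how age changes the pulmonary response to injurious mechanical ventilation. All mice were male wild-type C57BL/6, either young (2 to 3 months) or aged (22 months, kept on a restricted diet to hold body weight), and at each age a group was ventilated for 3 h at a tidal volume of 20 mL/kg, 150 breaths per minute, a PEEP of 0 cm H2O and an FIO2 of 1.0, or left as naive nonventilated controls. The ventilated mice alone also had anaesthesia, buprenorphine, arterial and venous lines, Ringer's lactate fluid and an endotracheal tube. Ventilation and those procedures cannot be told apart. The 20 mL/kg was a set value, and the paper capped the volume given to heavier mice. Its aged mice were in general heavier than its young ones. Age and the volume delivered per body weight thus cannot be told apart in the ventilated libraries. Each of the 4 groups is 1 library of cells pooled from 3 mice, digested for 30 minutes with Liberase and DNase I and cryopreserved, so no replicate check was possible, no test between groups was made, and every interval below is a 95% interval that covers counting error only.

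Immediate early genes are transcribed within minutes of a growth factor, stretch or stress signal, from promoters that stand ready and need no new protein synthesis. Fos and Jun proteins pair to form AP-1, which binds DNA at TGANTCA and related sites, while Egr factors bind GC-rich sites and Myc with its partner Max binds CACGTG. Fos, Jun and Egr1 messages are short-lived, whereas Fosl1 is itself a target of AP-1 and accumulates later. Enzymatic digestion of tissue is also known to raise many of these messages. All 4 libraries were digested for the same time, and no undigested sample was measured, so transcription in the lung and transcription during digestion cannot be told apart in these levels.

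In the GENCODE vM21 annotation of GRCm38, Fos lies at chr12:85473890-85477273 on the plus strand with 4 exons, and Fosb at chr7:19302696-19310051 on the minus strand. Fosl1 is at chr19:5447547-5455946 on the plus strand, where Ccdc85b overlaps it on the minus strand. Jun has 1 exon at chr4:95049034-95052222 on the minus strand and is overlapped by its antisense gene Junos, and Junb has 1 exon at chr8:84974484-84978718 on the minus strand and is overlapped by Prdx2. Ier2 is also a gene of 1 exon, at chr8:84661331-84662852 on the minus strand. Myc has 3 exons at chr15:61985391-61990374 on the plus strand. Fosl2 is at chr5:32135801-32157842 and Egr2 at chr10:67535475-67542188, both on the plus strand. Whether the counting separated overlapping genes by strand is not given in the sources used here.

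The sequences upstream of the annotated start of 4 AP-1 members are shown because their levels were among those lower after ventilation in the whole-library sums, and they let a reader see the promoter letters that these genes share or lack. They come from RefSeq promoter windows on GRCm38.p6, trimmed to the bases upstream of the annotated gene. They span chr12:85473640-85473889 on the plus strand for Fos, chr7:19310052-19310295 on the minus strand for Fosb, chr4:95052223-95052472 on the minus strand for Jun and chr8:84978749-84978998 on the minus strand for Junb. All are written 5′ to 3′ in the direction of transcription, with TGACG (the core of the CREB site) and TATAAA (the TATA box) in capitals.
Fos: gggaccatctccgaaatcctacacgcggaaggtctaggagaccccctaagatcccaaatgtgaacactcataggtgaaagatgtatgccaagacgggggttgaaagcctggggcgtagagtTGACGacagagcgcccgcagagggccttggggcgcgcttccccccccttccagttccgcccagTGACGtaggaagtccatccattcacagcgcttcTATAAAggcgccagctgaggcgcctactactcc
Fosb: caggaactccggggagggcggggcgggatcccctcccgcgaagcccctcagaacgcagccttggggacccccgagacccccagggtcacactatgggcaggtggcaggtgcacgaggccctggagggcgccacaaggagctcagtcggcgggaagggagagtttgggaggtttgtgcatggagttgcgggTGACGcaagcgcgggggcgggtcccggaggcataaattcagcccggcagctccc
Jun: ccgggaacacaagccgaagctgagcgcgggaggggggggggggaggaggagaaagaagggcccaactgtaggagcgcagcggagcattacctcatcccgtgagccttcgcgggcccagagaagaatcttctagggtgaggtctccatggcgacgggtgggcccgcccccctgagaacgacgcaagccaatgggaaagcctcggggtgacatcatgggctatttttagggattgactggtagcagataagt
Junb: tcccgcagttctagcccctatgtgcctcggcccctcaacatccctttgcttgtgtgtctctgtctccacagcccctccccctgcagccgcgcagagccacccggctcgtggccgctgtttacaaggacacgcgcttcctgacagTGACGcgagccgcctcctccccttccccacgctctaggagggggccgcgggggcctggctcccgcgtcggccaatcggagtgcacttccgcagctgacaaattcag
Positions are counted from the RefSeq start, which is not the GENCODE start for Fosb and Junb. TGACG was found in Fos at 129 and 66 bases before it, in Fosb at 60 bases and in Junb at 106 bases. TATAAA was found in Fos at 33 bases. The Fosb sequence was trimmed at its end, and the Junb window stops short of the GENCODE gene. The Jun window, which Junos also overlaps, held no match to the motifs searched. Related sites with other letters and bases further upstream were not searched. A window without a match thus does not show that its gene lacks such a site. The search covered the CREB core TGACG, the AP-1 site TGANTCA, the Egr site GTGGGCG, the Myc site CACGTG and the CArG box of serum response factor on both strands, and the TATA box on the given strand. No searched motif is part of another, though matches may share bases. Of 32851 windows of the same length, 17.8% held the CREB core, 6.75% the AP-1 site, 1.47% a CArG box, 7.02% the Egr site, 6.02% the Myc site and 7.59% the TATA box. These matches are a description of letters, and the motifs were chosen after the windows had been seen.

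After filtering, 10160 of 15428 barcodes were retained, namely 2533 young and 2480 aged cells without ventilation and 2976 young and 2171 aged cells after it, with median depths of 7871 to 9104 unique molecular identifiers (UMIs) per cell and 22814008 to 28010151 UMIs per library. Pairs of libraries shared between 0 and 7 barcodes. The doublet caller marked 35 cells (0.344%), a rate at which it cannot be said to have worked, and no doublets were removed. Levels below are UMIs of a gene scaled to a total of 1e+06 UMIs in the same cells (CPM), and a difference is counted where the levels are at least 2-fold apart and 1 of the sums holds at least 20 UMIs. In sums over all retained cells, fewer cells of a type and less RNA per cell cannot be told apart, so each member is then given by cell cluster.

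Of the 10 members, Fosl1 and Myc were at least 2-fold higher in the ventilated library at both ages, and none was 2-fold lower. Among all genes that held enough UMIs, 23.5% were 2-fold apart in young mice (5.96% higher and 17.6% lower after ventilation) and 15.2% in aged mice (4.08% higher and 11.1% lower). The members thus stood 2 higher and 0 lower of 10 at each age. This count of 2 of 10 apart is near the shares over all genes. Genes in general were more often lower than higher, but with 10 members the lack of a lower call cannot be read as a difference from them. The median log2 ratio of the members, ventilated over nonventilated, was -0.12 in young and -0.11 in aged mice, beside medians of -0.25 and -0.20 over all genes tested. Among genes with at least 50 CPM in both libraries, as most members had, the medians were -0.01 (3516 genes) and -0.06 (3643 genes). The members' medians lay below these. Fos, Fosb, Jun, Junb, Egr1, Egr2 and Ier2 had lower levels in the ventilated library at each age, all by less than 2-fold.

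**Figure D1:**
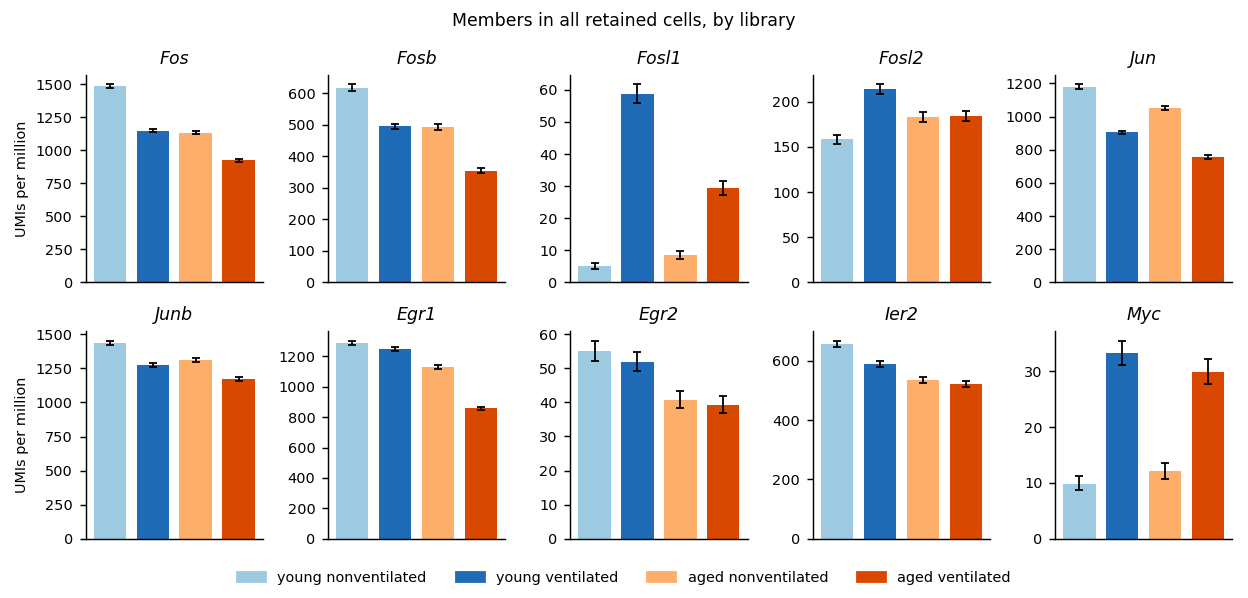
Level of each immediate early transcription factor in the retained cells of the 4 libraries, in CPM on linear axes that start at 0. Bars are single libraries and whiskers are exact Poisson 95% intervals of counting error. Fosl1 runs from 5.05 to 58.8 and Myc from 9.89 to 33.2 with both ventilated libraries on top, while Fos is highest in young nonventilated (1482) and lowest in aged ventilated mice (923).

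Among the Fos family, Fos, the founding AP-1 subunit, had 1482 CPM in young nonventilated and 1147 in young ventilated cells, and 1132 and 923 CPM in the aged nonventilated and ventilated cells. Fosb, its close paralog, had 618, 495, 493 and 355 CPM in the same order. For both, the young nonventilated library was the highest and the aged ventilated one the lowest. Fosl1, which encodes Fra-1 and is transcribed under the control of AP-1, had 5.05, 58.8, 8.45 and 29.3 CPM in the same order, from 122, 1647, 205 and 669 UMIs. It was 11.7-fold higher (interval 9.69 to 14.1) after ventilation in young and 3.47-fold higher (2.96 to 4.08) in aged mice, and its ventilated level was 2.01-fold higher (1.83 to 2.20) in young than in aged mice, a difference at the edge of the 2-fold limit. Fosl2, which encodes Fra-2, had 158, 214, 183 and 184 CPM, 1.35-fold higher after ventilation in young mice and with a ratio of 1.01 (0.965 to 1.05) in aged mice.

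Jun proteins are the usual partners of Fos proteins. Jun had 1180.4, 905, 1050.0 and 756 CPM, and Junb, a weaker activator than Jun, had 1438, 1275, 1313 and 1169.6 CPM, both in the order used for Fos. In both ages the ventilated library was the lower for each. Egr1 had 1288, 1249, 1128 and 858 CPM and Egr2, a relative that acts in macrophages and Schwann cells, 55.0, 51.9, 40.7 and 39.3 CPM. Ier2 had 657, 589, 536 and 522 CPM. For the Jun family, Egr1, Egr2 and Ier2 the log2 ratios lay between -0.38 and -0.04 in young and between -0.47 and -0.04 in aged mice, but those of Egr2 ran from -0.35 to 0.08 in young and from -0.45 to 0.47 in aged mice over the processing alternatives, and that of Ier2 from -0.23 to 0.05 in aged mice, so their direction was not fixed.

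Myc, which drives growth and ribosome production, had 9.89, 33.2, 12.1 and 29.9 CPM, from 239, 931, 294 and 683 UMIs. It was 3.36-fold higher (2.91 to 3.89) after ventilation in young and 2.47-fold higher (2.15 to 2.84) in aged mice, and the ventilated libraries did not overlap the nonventilated ones. Between ages, no member was 2-fold apart in nonventilated cells, where 4.79% of all genes tested were, and Fosl1 alone was in ventilated cells, where 6.51% were. The members' median log2 ratio of aged over young was -0.18 in nonventilated and -0.29 in ventilated cells, beside -0.02 and 0.05 over all genes tested. These are sums over all cells, and values by cluster are given below. With the cell makeup made equal across libraries, the log2 ratio of aged over young ventilated cells went from -0.31 to 0.02 for Fos, from -0.26 to 0.04 for Jun and from -0.13 to 0.01 for Junb. That setting also left out the classical monocyte-like cells, which were clustered only in the ventilated libraries (107 young and 139 aged cells). The equal weights and this removal cannot be told apart in these shifts. The difference between the ages in the response to ventilation was not tested.

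The share of cells with at least 1 UMI was compared after each cell had been thinned to 2000 UMIs, which left out 270, 447, 252 and 242 shallower cells. Fosl1 was then seen in 0.972% and 9.73% of young cells without and with ventilation and in 1.35% and 5.75% of aged cells, against 3.12%, 23.7%, 5.28% and 16.4% without thinning. Myc was seen in 1.86%, 5.54%, 1.53% and 4.98% of thinned cells. Both genes were thus seen in a larger share of the ventilated cells at each age. In the T, NK or innate lymphoid-like cells Fosl1 was in 0 of 39, 41, 74 and 62 thinned cells, which allows shares of up to 7.69%, 7.32%, 4.05% and 4.84%, at median depths of 5212 to 10074.5 UMIs, and in 0% to 2.13% of them without thinning. Fos was in 58.4%, 53.4%, 52.1% and 48.3% and Junb in 73.4%, 76.0%, 72.7% and 73.9% of thinned cells.

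Cells were grouped into 18 clusters without the members among the genes used, and 14 clusters held at least 20 cells in every library. Names ending in -like rest on marker genes. The dendritic-like cluster showed as many interstitial macrophage as dendritic markers (6 of each), so its name stands for a mixture. Among the 14 counted clusters, Fos, Jun, Junb and Egr1 had their highest mean over the 4 libraries in the alveolar fibroblast-like cluster (Fos 2604 CPM, range 2364 to 2928). For each of them the range overlapped that of the next cluster, which for Fos was the pericyte-like one. Fosb was highest in the lymphatic endothelial-like cluster (1442 CPM, the 4 libraries not overlapping the next cluster). Ier2 was highest in the shallower of the pair of aerocyte capillary endothelial-like clusters (1239 CPM, with a range that overlapped the next). Egr2 was highest in the alveolar macrophage-like cluster (291 CPM), where its 4 libraries did not overlap the next cluster, the dendritic-like cells (75.8 CPM). Fosl2 had its highest mean in the neutrophil-like cluster (524 CPM), with a range that overlapped the next. For Fosl1 and Myc the order depended on ventilation. Fosl1 was highest in the neutrophil-like cluster in both nonventilated libraries (37.4 and 56.6 CPM). In young ventilated cells it was highest in the alveolar type II-like cluster (126 CPM), which also showed 8 of 8 type I markers. In aged ventilated cells it was highest in the shallower aerocyte cluster (109.8 CPM, from 17 UMIs). At a finer resolution, young ventilated Fosl1 was 198 and 162 CPM in alveolar type I-like clusters and 73.4 CPM in an alveolar type II-like cluster. Myc was highest in the pericyte-like cluster in both nonventilated libraries (33.5 and 29.2 CPM), in B-like cells in young ventilated mice (107 CPM, from 36 UMIs) and in the general capillary endothelial-like cluster in aged ventilated mice (68.1 CPM). At the low end stood Fos in B-like cells (186 CPM), Egr1 in nonclassical monocyte-like cells (89.0 CPM) and Myc in the same monocytes (1.0 CPM).

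The summed level of all 10 members over the retained cells was 6892 CPM without and 6019 CPM with ventilation in young mice, and 5897 and 4866 CPM in aged mice. Among the 14 counted clusters its mean was highest in the alveolar fibroblast-like cells (11705, 10830, 12220 and 10864 CPM in the same order) and low in the B-like cells (1568, 1493, 1669 and 1961 CPM). The smooth muscle or myofibroblast-like cluster, which had too few cells to count (36, 37, 23 and 16), stood higher than the fibroblasts in 3 of 4 libraries (21256, 9989, 18354 and 13781 CPM). After ventilation the summed level was higher in 2 of 14 clusters in young mice, the pericyte-like and an unnamed cluster, and in 1 of 14 in aged mice, the B-like cluster. In the other clusters the ventilated level was the lower at that age. The log2 ratio of the summed level, aged over young nonventilated, was -0.23 over all retained cells. By counted cluster it ran from -0.82 (dendritic-like) to 0.21 (the shallower aerocyte cluster). In the largest clusters, the general capillary endothelial-like, alveolar fibroblast-like and nonclassical monocyte-like ones, it was -0.04, 0.06 and -0.01.

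**Figure D2:**
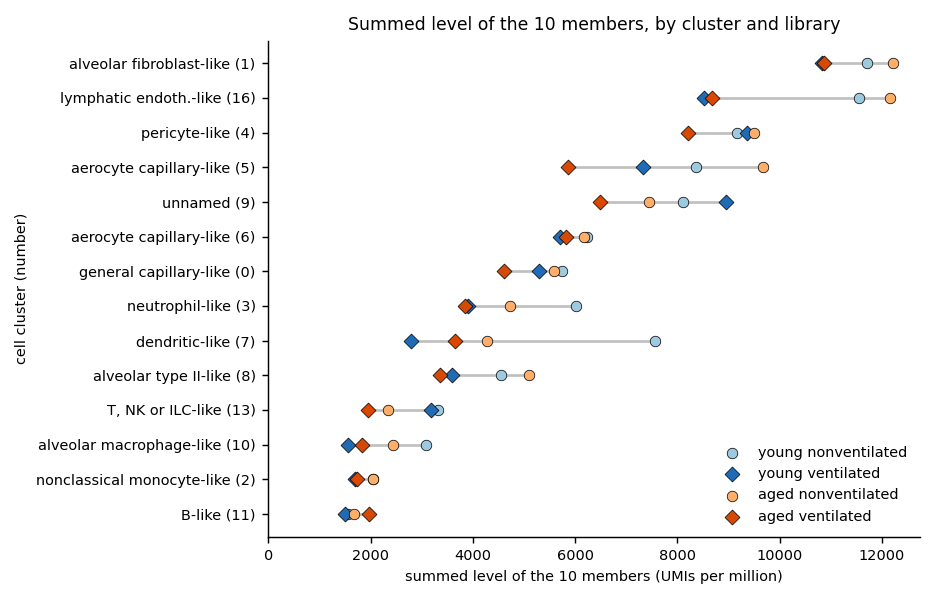
Summed level of the 10 members in each counted cell cluster (rows), in CPM, with 1 point per library and a line over their range. The alveolar fibroblast-like cluster sits between 10830 and 12220, and the dendritic-like cluster drops from 7559 in young nonventilated to 2793 in young ventilated cells.

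The counts by cluster are to be read beside the share of all genes 2-fold apart in each cluster, mostly given further below. In the pericyte-like cluster 2 of 10 members were apart in young mice, beside 12.9%, and 0 of 8 in aged mice, beside 9.29%. In the shallower aerocyte cluster 2 of 8 were, beside 32.0%, and 2 of 6, beside 23.5%. The unnamed cluster had 0 of 7 at each age, beside 27.7% and 21.1%. The lymphatic endothelial-like cluster had 1 of 7, beside 20.0%, and 0 of 7, beside 15.2%. Fosl1 was at least 2-fold higher after ventilation in 9 of the 14 clusters in young mice, and in the other 5 it was under 20 UMIs in both sums. In most of the 9 it passed only through the ventilated sum. Examples are the alveolar type II-like cluster (0 and 97 UMIs) and the shallower aerocyte cluster (0 and 21 UMIs). A call of lower was not possible there, so the count is a description only. In aged mice it was 2-fold higher in 4 clusters of the 7 where it passed. Myc was 2-fold higher in 5 and lower in 1 cluster in young mice, and higher in 2 and lower in 1 in aged mice. The limit given for young Fosl1 also holds for aged Fosl1 in the deeper aerocyte and alveolar type II-like clusters. It holds as well for Myc in young alveolar type II-like and aged general capillary endothelial-like cells, so these counts too are a description only. Fosl2 was higher in 5 and lower in 1 cluster in young mice, and lower in 1 in aged mice. The remaining members were mostly lower: Fosb in 6 and 4 clusters, Fos in 3 and 2, and Egr1 in 3 and 2, with Egr1 higher in 1 at each age. Jun was higher in 2 and lower in 2 clusters in young mice and lower in 1 in aged mice, Egr2 higher in 2 and lower in 2 in young and higher in 2 and lower in 1 in aged mice, Ier2 lower in 1 cluster in young mice, and Junb in none at either age.

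**Figure D3:**
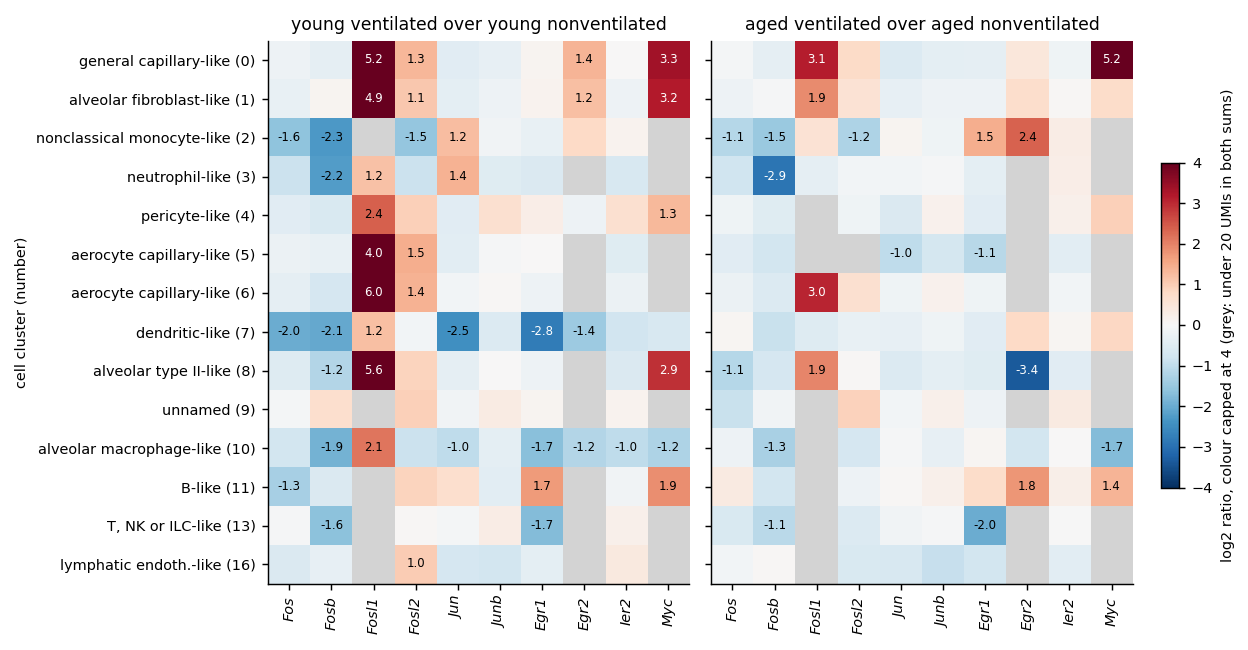
Log2 ratio of ventilated over nonventilated for each member (columns) in each counted cluster (rows), young and aged in separate panels. Colours are capped at 4 and run from lower to higher after ventilation. The column of Fosl1 is on the higher side in structural cells. In young mice it is also higher in the neutrophil-like, alveolar macrophage-like and dendritic-like clusters. Fosb is on the lower side in the leukocyte clusters and also in the alveolar type II-like cluster.

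In the general capillary endothelial-like cells, the largest cluster, Fosl1 had 1.45, 58.2, 4.71 and 42.9 CPM in the order used for Fos, a 40.1-fold difference in young (20.1 to 93.6, from 8 to 349 UMIs) and 9.12-fold in aged mice (5.99 to 14.4). Myc had 4.35, 46.0, 1.70 and 68.1 CPM, 10.6-fold higher (6.96 to 16.8) in young and 40.2-fold higher (20.9 to 88.7, from 9 to 306 UMIs) in aged mice. Both ventilated libraries stood above both nonventilated ones for each gene. In thinned cells of this cluster Fosl1 was seen in 0.152%, 11.2%, 0.85% and 7.99%, and Myc in 0.303%, 7.10%, 0.170% and 11.2%, at median depths of 7239 to 8881 UMIs. Without thinning the Fosl1 shares were 0.742%, 22.7%, 3.69% and 25.3%, above the lymphoid ones in both ventilated libraries. Fosl2 (72.2 to 183 CPM) and Egr2 (8.16 to 21.2 CPM) were also 2-fold higher in young ventilated cells, which made 4 of 10 members in young mice, beside 28.3% of genes tested in the cluster, and 2 of 10 in aged mice, beside 18.5%.

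The alveolar fibroblast-like cells, which make the collagen and elastin of the alveolar wall, showed Fosl1 at 2.99, 92.1, 11 and 41.7 CPM, 30.8-fold higher (18.9 to 54.3) after ventilation in young and 3.79-fold higher (2.75 to 5.30) in aged mice. Myc was at 4.48, 41.8, 19.4 and 32.2 CPM, 9.33-fold higher (6.15 to 14.8) in young mice and under 2-fold higher in aged mice. The aged nonventilated level of both was above the young nonventilated level. With Fosl2 (133 to 280 CPM) and Egr2 (39.2 to 89.7 CPM) in young mice, 4 of 10 members were 2-fold apart there, beside 30.6% of genes, and Fosl1 alone in aged mice, beside 17.7%. In thinned fibroblasts Fosl1 was seen in 0.8%, 13.7%, 0.325% and 7.78%.

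**Figure D4:**
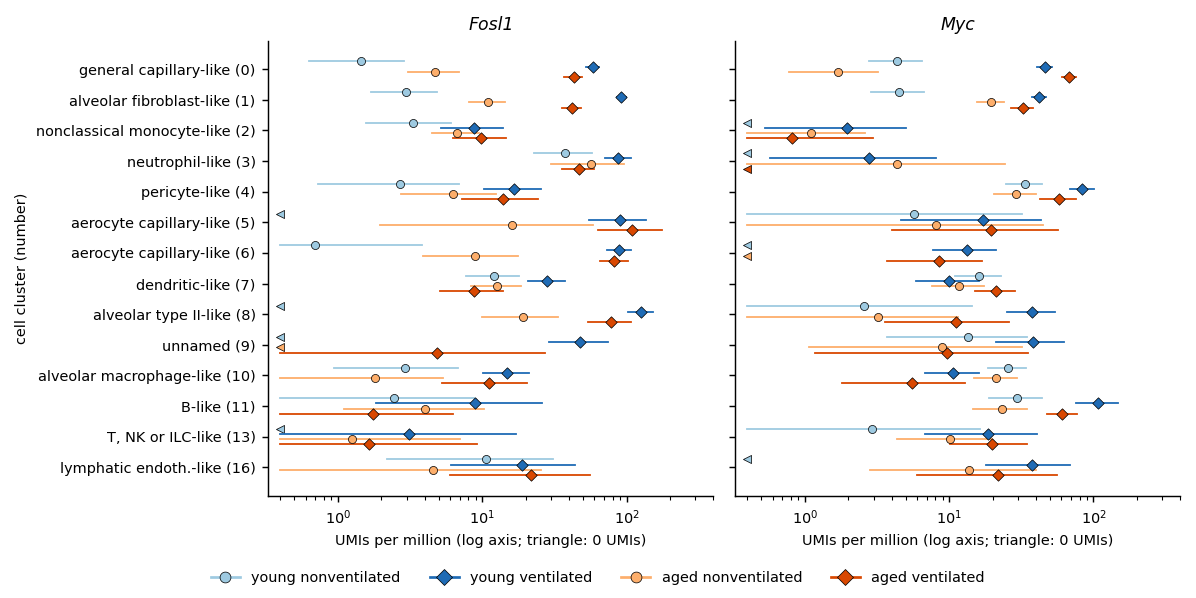
Levels of Fosl1 and Myc by cluster in the 4 libraries, in CPM on log axes with triangles for 0 UMIs, with exact Poisson 95% intervals cut at the left edge. In the general capillary endothelial-like cells Fosl1 goes from 1.45 to 58.2 in young and from 4.71 to 42.9 in aged mice, and Myc from 1.70 to 68.1 in aged mice.

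The aerocyte capillary endothelial-like and alveolar epithelial cells differed in the same direction for Fosl1. In the deeper aerocyte cluster Fosl1 had 0.691, 89.0, 8.97 and 82.4 CPM, from 1, 114, 8 and 77 UMIs, ratios of 129 (22.6 to 5127) in young and 9.19 (4.44 to 22.0) in aged mice. There 2 of 8 members with enough UMIs were 2-fold apart in young mice, Fosl1 and Fosl2 (49.1 to 130 CPM), beside 31.1% of genes. In aged mice 1 of 8 was, beside 19.4%. In the cluster named alveolar type II-like, after the cells that make surfactant, Fosl1 had 0, 97, 12 and 35 UMIs. The young ventilated level was 16.2-fold the floor of 3 counts in the nonventilated sum, and the aged one was 4.06-fold higher. Ratios to that floor leave out the counting error of the ventilated sum. The finer resolution had an alveolar type II-like cluster of only 17, 25, 23 and 11 cells, with 0, 32, 2 and 16 UMIs of Fosl1 (6.61-fold the floor in young ventilated cells). It also had an alveolar type I-like cluster of 61, 118, 70 and 67 cells, with 0, 69, 10 and 19 UMIs (8.50-fold the floor). The main type II-like cluster also showed 8 of 8 type I markers. The size of its Fosl1 ratio thus depended on how the epithelial cells were parted. Fosb there had 682, 300.4, 487 and 307 CPM and Myc 2.59, 37.6, 3.20 and 11.1 CPM. These made 3 of 9 members with enough UMIs 2-fold apart in young cells, beside 20.7% of genes. In aged cells 3 of 9 were (Fos, Fosl1 and Egr2), beside 17%. The main alveolar type I-like cluster, with 27, 36, 34 and 19 cells, held 0, 82, 0 and 5 UMIs of Fosl1, 20.4-fold the floor in young ventilated cells. It held Fos at 251, 1550.3, 184 and 419.9 CPM. Its summed member level was 4.41-fold higher (3.98 to 4.90) after ventilation in young and 1.88-fold higher (1.66 to 2.14) in aged mice, but it is under the minimum number of cells and was left out of the counts by cluster.

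In the pericyte-like cells, which wrap the capillaries, Myc had 33.5, 83.6, 29.2 and 57.2 CPM, 2.50-fold higher (1.77 to 3.57) in young ventilated cells, and the ratio of Fosl1 there rests on 4 and 21 UMIs. At a finer resolution, the adventitial fibroblast-like cells had Fosl1 at 6.67, 184, 21.4 and 110.0 CPM, 27.6-fold and 5.14-fold higher after ventilation in young and aged mice. Venous endothelial-like cells had Myc at 22.6, 85.8, 11.5 and 110.7 CPM, 3.80-fold and 9.64-fold higher. These cells of larger vessels and their sheath showed the same direction as the capillary cells and alveolar fibroblasts.

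The dendritic-like cluster holds antigen-presenting cells and showed as many interstitial macrophage as dendritic markers. In it Fos had 1585, 399.7, 732 and 779 CPM, Jun 858, 156, 368 and 295 CPM, and Egr1 1316, 188, 536 and 393 CPM. Young ventilated cells were 3.97-fold lower for Fos, 5.49-fold for Jun and 6.99-fold for Egr1, while the young nonventilated library stood above the other 3 for each. In young mice 6 of 10 members were 2-fold apart (Fos, Fosb, Jun, Egr1 and Egr2 lower and Fosl1 higher), beside 20.2% of genes, and 0 of 10 in aged mice, beside 8.84%. At a finer resolution the cluster parted into interstitial macrophage-like cells (87, 58, 82 and 68 cells) and dendritic-like cells (33, 41, 49 and 34 cells) among others. Fos had 1887, 400.0, 996 and 876 CPM in the former and 1019, 395, 419 and 637 CPM in the latter, and Egr1 1520, 234, 606 and 468 CPM in the former and 933.5, 138, 453 and 285 CPM in the latter. The young ventilated library was the lowest for both genes in both kinds of cell.

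In the alveolar macrophage-like cells, the resident phagocytes of the airspace, Fosb had 356, 95.5, 352 and 143 CPM and Egr1 518, 163, 228 and 239 CPM. Fosb was 3.72-fold and Egr1 3.17-fold lower in young ventilated cells. Fosl1 was higher (2.90 to 14.9 CPM, from 5 to 32 UMIs) and Myc lower (25.6 to 10.7 CPM) there, so that 7 of 10 members were 2-fold apart in young mice, beside 14.1% of genes. In aged mice 2 of 9 members with enough UMIs were, Fosb and Myc (21.3 to 5.53 CPM), beside 6.24%. Myc was thus lower after ventilation in these macrophages and higher in the capillary cells, at both ages; the difference was not tested.

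The nonclassical monocyte-like cluster had Fos at 423, 139, 393 and 177 CPM and Fosb at 131, 26.3, 95.9 and 33.7 CPM. Both ventilated libraries lay below both nonventilated ones, by 3.03-fold and 2.22-fold for Fos and by 4.97-fold and 2.85-fold for Fosb in young and aged mice. Fosl2 had 256, 87.2, 259 and 111 CPM and showed the same order. Jun was 172, 404, 256 and 273 CPM, and Egr1 83.3, 67.7, 54.9 and 150.3 CPM. In young mice 4 of 8 members with enough UMIs were 2-fold apart, beside 20.6% of genes. In aged mice 5 of 9 were (Fos, Fosb, Fosl2, Egr1 and Egr2), beside 16.2%. This cluster also took in the nonventilated classical monocytes, since the classical monocyte-like cluster held 0, 107, 0 and 139 cells. The nonclassical monocyte-like cells of the finer resolution (145, 214, 364 and 210 cells) had Fos at 371, 127, 384 and 183 CPM, 2.93-fold lower in young and 2.10-fold lower in aged ventilated cells.

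In the neutrophil-like cluster Fosb had 350.1, 73.8, 418 and 54.9 CPM, 4.74-fold lower after ventilation in young and 7.62-fold lower in aged mice. Jun was 65.5, 175, 183 and 175 CPM and Fosl1 37.4, 87.6, 56.6 and 46.5 CPM. Here 3 of 8 members with enough UMIs were 2-fold apart in young mice, beside 34.8% of genes. In aged mice 1 of 8 was, beside 29.3%. The young count was thus near the share over all genes. In the T, NK or innate lymphoid-like cluster, Fosb and Egr1 were 2-fold lower at both ages. Fosb had 455, 145, 230.0 and 107 CPM and Egr1 265, 77.2, 90.5 and 21.4 CPM. These were 2 of 7 members with enough UMIs at each age, beside 16.7% of genes in young and 9.65% in aged mice. The aged value of Egr1 rests on 72 and 13 UMIs, and its direction turned when free RNA was subtracted. In the B-like cluster Myc was higher at both ages (29.3, 107, 23.2 and 60.9 CPM). Of members with enough UMIs, 3 of 8 were apart in young mice, beside 15.7%, and 2 of 9 in aged mice, beside 8.56%.

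Cells of the 2 ventilation states also differed in which finer clusters they filled. At the finer resolution most nonventilated and ventilated general capillary and alveolar fibroblast-like cells fell into separate clusters, such as 1 of 580, 16, 498 and 61 cells and 1 of 6, 631, 12 and 301 cells. Values within the main clusters therefore compare cells that the other genes also set apart. The scaling was checked on genes with at least 50 CPM in both sums. Their median log2 ratio, ventilated over nonventilated, was -0.01 in young (3516 genes) and -0.06 in aged mice (3643 genes) over all retained cells, and -0.22 and -0.24 in the neutrophil-like cluster, relative to which the members' ratios there are to be read.

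The genes around the members were described by lists, which were chosen with earlier results of these data known. Of 18 other immediate early transcription factors, 0 were 2-fold higher and 3 were lower in young ventilated cells, Klf2 (0.416-fold), Klf4 (0.458-fold) and Mycl (0.479-fold, 36 to 20 UMIs), and 0 were 2-fold apart in aged mice, with median log2 ratios of 0.00 and -0.42. For all lists the shares over all genes to read beside the counts are those given above (5.96% higher and 17.6% lower in young mice, 4.08% and 11.1% in aged mice), and the 3 of 17 measured factors that were lower are near that share. Of 24 immediate early effector and feedback genes, 4 were higher in young mice, Hbegf (4.79-fold), Phlda1 (2.62-fold), Trib1 (2.41-fold) and Ptgs2 (2.00-fold), and 2 in aged mice, Hbegf (2.74-fold) and Ptgs2 (2.07-fold), with medians of 0.35 and 0.15. Hbegf encodes a ligand of the EGF receptor and Ptgs2 the prostaglandin synthase COX-2. Of 15 dimer partners and corepressors, 0 were apart in young and 2 were higher in aged mice, Mxd1 (3.36-fold) and Batf (2.13-fold), with medians of 0.16 and 0.00. Of 7 serum response and ternary complex factors, which act upstream of Fos and Egr1, only Elk3 was apart, lower in young mice (0.449-fold), with medians of 0.02 and -0.11.

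Of 15 Myc target genes, 8 were 2-fold higher in young and 3 in aged mice and 0 were lower, with medians of 1.13 and 0.58. Odc1, the first enzyme of polyamine synthesis, was 6.05-fold higher in young and 2.04-fold in aged mice, and Srm, which makes spermidine, 2.86-fold and 2.63-fold. The nucleolar genes Gnl3 (2.99-fold), Ddx21 (2.27-fold) and Rrp9 (2.26-fold) were higher in young mice and Nop16 (2.15-fold) in aged mice. The summed level of this list was higher after ventilation in 13 of 14 clusters in young and 12 of 14 in aged mice. These included the alveolar macrophage-like cells (1455 to 2655 CPM in young and 1581 to 1890 CPM in aged mice), where Myc itself was lower. In neutrophil-like cells the sum was lower at both ages (386 to 266 and 340 to 309 CPM). Whether the list follows Myc was not tested. Of 15 AP-1 linked genes, 14 held enough UMIs, 7 were higher and 1 lower in young mice, and 7 were higher and 0 lower in aged mice, with medians of 0.84 and 0.85. They included Timp1, a metalloproteinase inhibitor (18.5-fold and 3.95-fold), Hmox1, heme oxygenase (12.6-fold and 14.3-fold), Sphk1, a sphingosine kinase (13.7-fold and 5.24-fold), and Lif, a cytokine (14.7-fold in young mice). By cluster the summed level of the AP-1 linked list was higher after ventilation in 9 of 14 clusters in young and 8 of 14 in aged mice. It was lower at both ages in the neutrophil-like cells (6685 to 3422 CPM in young and 5738 to 3473 CPM in aged mice). The same held for the alveolar macrophage-like (5779 to 4796 and 4837 to 4818 CPM) and dendritic-like cells (1705 to 1642 and 1641 to 1284 CPM). It also held for the B-like cells (587 to 472 and 622 to 593 CPM). The medians over all genes were -0.25 and -0.20, and no test of the lists was made. Because earlier results were known when the lists were chosen, their counts and medians are a description only.

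**Figure D5:**
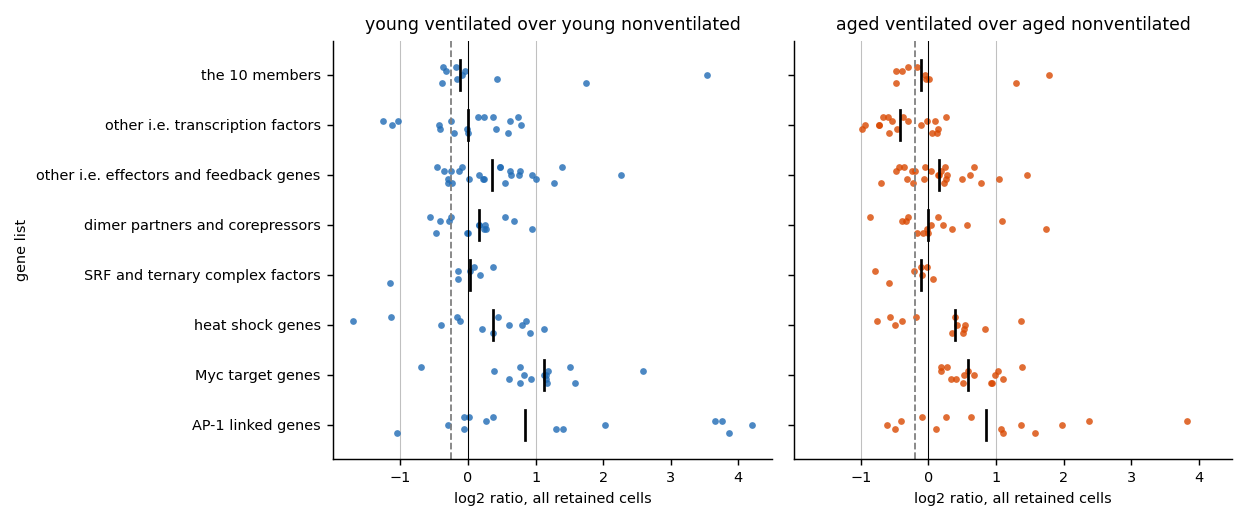
Log2 ratio of ventilated over nonventilated for every gene of each list, young and aged side by side, with the list's median marked. The lists were chosen with earlier results of these data known. The medians of the Myc target genes are 1.13 and 0.58 and those of the AP-1 linked genes 0.84 and 0.85, while the other lists have medians between -0.42 and 0.40.

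Heat shock genes, which digestion is also known to raise, were read beside the members. Their summed level was 4334 CPM without and 6557 CPM with ventilation in young cells, and 4056 and 5739 CPM in aged cells, and was thus higher in the ventilated libraries, where the summed level of the members was lower. Of 13 genes, Hspa5 was higher (2.18-fold) and Hspa1a (0.455-fold) and Hspa1b (0.308-fold) were lower in young ventilated cells, and Hspb1 was higher (2.57-fold) in aged ones, with medians of 0.37 and 0.40. The stress-inducible Hspa1a had 141, 64.3, 88.4 and 59.6 CPM and Hspa1b 78.3, 24.1, 48.5 and 37 CPM, lower in the ventilated library at each age, as Fos and Fosb were. The part of digestion in the members' levels was not tested.

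The genes whose pattern was most like each member were sought among 4111 genes, which left out the members themselves. Likeness was Pearson's r of log2 levels over 56 sums, the 14 counted clusters in 4 libraries. The sums share libraries, depth and cell types. Closest to Fos were Timp2 (0.88), Prex2 (0.85) and Nr2f2 (0.84), and closest to Fosb Nfia (0.78), Gas6 (0.76) and Plce1 (0.76). Jun was most like Npdc1 (0.91), AY036118 (0.90) and Serpinh1 (0.90), and Junb most like Ppp1r15a (0.82), Btg2 (0.82) and Coq10b (0.75). For Egr1 they were Tns2 (0.85), Cald1 (0.84) and Prex2 (0.84), and for Ier2 Mxra7 (0.86), Cd34 (0.86) and Fmo1 (0.84). The sparser members had weaker values. Fosl1 was most like Bcl3 (0.67), Eif5 (0.64) and Stk40 (0.64), Fosl2 like Tiparp (0.77), Ap3s1 (0.70) and Tle3 (0.67), Egr2 like Plet1 (0.62), Atp6ap2 (0.62) and Colgalt1 (0.59), and Myc like Ncl (0.69), which is also a gene of the Myc target list, Gm47283 (0.64) and its neighbour Pvt1 (0.63). Among the members themselves Fos and Egr1 were the closest pair (0.89), and Fosb was closest to Fos (0.82). For Fos, Egr1 and Fosb these values lie above those of the genes named.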

How the data were processed

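Per the labels, each library is a 10x single-cell RNA library of left lung from 3 pooled mice. The authors deposited raw UMI counts per gene and cell, made with Cell Ranger 7.0.0 and mm10 (from the submitters' processing notes). Barcodes were kept when they held between 200 and 5000 genes, no more than 10% of UMIs from mitochondria, and a total under the 93 percentile of all barcodes. Genes other than the members were log-normalised and clustered on their 2000 most variable, with 37 components at resolution 0.18 (Seurat 5.3.0, R 4.3.3). Names required detected markers from a list.

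Counts were summed per library and cluster and divided by the sum of all UMIs. Log2 ratios added 1 UMI to each sum. Exact Poisson, conditional binomial and binomial intervals (95%) cover counting error only, and the floor is 3 counts per library. With 1 library per group no p-value was computed, and no set test was run. Alternatives were another mitochondrial limit, UMI limit, scaling, per-cell mean, thinning, free RNA removal, doublet scores, resolution, and equal cell makeup. The members and lists were chosen with earlier results of these data known. Besides the members, the genes named are, per list and age, up to 5 with the largest ratio among those 2-fold apart with 20 UMIs, and the 3 genes most like each member among those with a mean of 50 CPM (log2 of CPM plus 1). A gene that this rule would name is not reported here. Scripts were tested on simulated data. Other software was Python 3.11.15 with matplotlib 3.10.9, scanpy 1.11.5, pandas 2.3.3, scipy 1.17.1 and numpy 2.4.6.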

Additional observations from a re-analysis of the deposited data

Results flagged for a closer look

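The counting intervals of the young and aged ratios lay on opposite sides of 1 in 8 cases, given here as log2 of ventilated over nonventilated, young then aged. The difference between the ages was not tested, because each group is 1 library. The cases were picked from all members and counted clusters, and how often other genes meet the same rule is not given here. Since the intervals cover counting error only, small ratios can qualify where a gene has many UMIs, such as 0.11 and 0.14 for Egr1 below. The 8 cases are therefore a description only, and do not set the members apart from other genes. Egr1 had 0.11 and -0.37 in general capillary endothelial-like, 0.14 and -0.21 in alveolar fibroblast-like and 0.27 and -0.46 in pericyte-like cells. Egr2 had -1.44 and 0.80 in dendritic-like cells. In B-like cells Fos had -1.33 and 0.37 and Junb -0.42 and 0.20. In lymphatic endothelial-like cells Fosl2 had 1.03 and -0.61 and Ier2 0.38 and -0.43.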

How the results depend on the processing

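The 12 alternatives include 2 other minimum numbers of UMIs, which bear on the counts of members and not on the ratios. Over the other alternatives and the main setting, the log2 ratio of ventilated over nonventilated ran from 2.63 to 3.59 (young) and 1.61 to 1.92 (aged) for Fosl1. For Myc it ran from 1.61 to 1.93 and 0.97 to 1.45. The count of members 2-fold apart was 2 in young mice under all 12. In aged mice it was 1 with a mitochondrial limit of 5%, in place of 2. Between ages it was 0 in nonventilated cells under all 12, and in ventilated cells, where Fosl1 counted as 1, it was 0 under 7: a UMI limit from the barcodes left, no upper limits, all barcodes, median-ratio scaling, the mean of per-cell CPM, thinning to 1000 UMIs and equal cell makeup. Clusters with a higher summed level after ventilation numbered 2 in young mice, 1 with median-ratio scaling, with per-cell CPM or with the members among the variable genes, 3 with the UMI limit from the barcodes left, with thinning to 1000 UMIs or with 10% free RNA removed, and 4 of 13 without the highest doublet scores. In aged mice they numbered 1, and 0 with per-cell CPM and 2 of 17 at a resolution of 0.5. The 64 cluster ratios 2-fold apart were recomputed under 5 settings. The log2 ratio moved by 0.5 or more without a change of direction in 30 with thinning to 1000 UMIs, 24 with free RNA removed, 10 with per-cell CPM, 8 without the highest doublet scores and 0 with median-ratio scaling. Of the 317 values, 316 kept their direction, and Egr1 in aged T, NK or innate lymphoid-like cells went from -1.99 to 0.39 with 10% free RNA removed. The cause was not tested. No replicate could be left out, and counting intervals do not cover variation between mice.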
